A study of Saccharomyces cerevisiae with 8 samples.

Results

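The genes described here are GCN4 and 48 genes whose products make histidine, the branched-chain amino acids and leucine, lysine, the aromatic amino acids, threonine, serine and asparagine, or glutamate and proline in the budding yeast Saccharomyces cerevisiae. They were taken from a list of names, chosen with earlier results of these data known, and matched through the open reading frame of each probe. All 49 were measured, of 6465 genes kept on the array. Total RNA was compared on 8 arrays with a Cy5 and a Cy3 channel, 4 arrays for each of 2 comparisons, and the study asked how the transcriptome of a transporter double mutant differs from those of wild type and of a triple mutant. The double mutant carries pdr5-∆1::hisG and yor1-1::hisG, which disrupt PDR5 and YOR1, plasma membrane ABC transporters that export drugs. The triple mutant carries pdr1::kanMX4 as well, which disrupts PDR1, a transcription factor of drug resistance genes. The wild type is the haploid SEY6210, of mating type alpha, auxotrophic for leucine (leu2-3,-112), uracil (ura3-52), lysine (lys2-801), tryptophan (trp1-∆901) and histidine (his3-∆200) and carrying suc2-∆9, and both mutants were made in it. Cells grew in the rich medium YPD, which supplies amino acids. LEU2 and LYS2, which are among the 49 genes, are thus mutant alleles in every strain, and the strains also lack HIS3 and TRP1 function.

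Yeast makes all the protein amino acids when the medium lacks them. GCN4 encodes the transcriptional activator of general amino acid control: when uncharged tRNA accumulates, the kinase Gcn2 phosphorylates eIF2, translation of the GCN4 mRNA rises, and Gcn4 activates genes in most amino acid pathways at the same time. In rich medium Gcn4 protein is scarce, being degraded after phosphorylation by cyclin-dependent kinases such as Pho85 with its cyclin Pcl5, itself a Gcn4 target. Because much of this control acts on translation and protein stability, the level of GCN4 mRNA is only one part of Gcn4 activity. Some pathways have an activator of their own as well, such as Leu3 for leucine genes and Lys14 for lysine genes.

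Median spot intensity ranged over arrays from 402 to 1300 units for Cy5 and from 117 to 1040 for Cy3, and no spot was saturated. In the comparison with wild type, PDR5 fell in the double mutant (log2 ratio -1.46, adjusted p = 0.000165) and YOR1 rose (1.94, adjusted p = 4.21e-06), as read by probes to genes disrupted by a cassette. PDR1 went against the labels of the other comparison: it stood well above background in the channel labelled triple mutant on 4 of 4 arrays and in the channel labelled double mutant on 0 of 4 (log2 ratio of double mutant over triple mutant -2.36, adjusted p = 0.00196). In the same comparison YOR1 was lower in the channel labelled double mutant (-1.67, adjusted p = 1.81e-05), and PDR5 was not called (-0.14, adjusted p = 0.565). On the arrays with wild type, PDR1 stood well above background in the double mutant on 4 of 4 arrays (log2 ratio 0.05, adjusted p = 0.924). The channel labelled double mutant thus had PDR1 signal beside wild type and not beside the triple mutant. Every ratio in the comparison with the triple mutant is therefore given as labelled, and would have the opposite sign if the labels were exchanged. Whether the arrays represent separate cultures is not stated, so p-values measure the spread between arrays, which may be technical.

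Among amino acid synthesis transcripts, 13 of 49 fell in the double mutant relative to wild type, and the other 36 did not pass the test. The fitted log2 ratio was below 0 for 49 of 49 genes, with a median of -0.42, against a median of -0.01 over all 6465 genes, and it ran from -1.08 for LEU4 to -0.00 for PRO1. By limma's test, adjusted by the Benjamini-Hochberg method over all genes and called at an adjusted p below 0.05, the 13 genes made up 26.5% of the 49, and 0 rose. Over all genes 4.97% were called lower and 3.23% higher. The genes that fell were GCN4, HIS1, HIS7, ILV2, ILV3, BAT1, LEU2, LEU4, LYS4, TRP4, ASN1, GDH1 and GLT1. On all 4 arrays the double mutant was lower for 32 of the 49 genes (65.3%), against 13.9% of all genes. As the list was chosen with earlier results known, these shares are descriptive only. In bulk RNA, fewer cells with a transcript and less of it per cell cannot be told apart.

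Array 4 departed from the other arrays of this comparison, and the calls depended on how arrays were combined. The median log2 ratio of the 49 genes was -0.21, -0.31, -0.13 and -1.15 on arrays 1 to 4, and the ratio was negative for 44, 42, 40 and 45 of them. All 4 medians were thus below 0, and the fourth was much the lowest. Without array 4, the median was -0.25 and 24 genes fell, again with 0 called higher, while 6.9% of all genes were called lower and 5.86% higher. The 24 held all 13 genes called with every array, and added HIS4, HIS5, BAT2, LEU1, LYS1, LYS2, LYS21, ARO3, ARO8, HOM2 and HOM3. The median standard error of the 49 ratios was 0.0621 without array 4, against 0.135 with it. Without array 1, only LEU4 and HIS1 of the 13 remained, and 6 to 8 genes were called without array 3 or without any 1 array of the other comparison. With the authors' processed intensities 1 gene was called lower, and with median centring in place of loess 3. Calls fell over all 6465 genes too, from 321 lower to 125 without array 1, 9 with processed intensities and 26 with median centring. These fits take part of their spread from the arrays of the other comparison. With the 4 arrays of this comparison fitted alone by limma, 0 of the 49 genes were called, and 6 of all genes were called lower. Of the 49, 28 had an unadjusted p below 0.05 in that fit, and the smallest adjusted p was 0.0851. With arrays 1 to 3 fitted alone, an alternative chosen after seeing the data, 7 of the 49 and 106 of all genes were called lower.

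**Figure D1:**
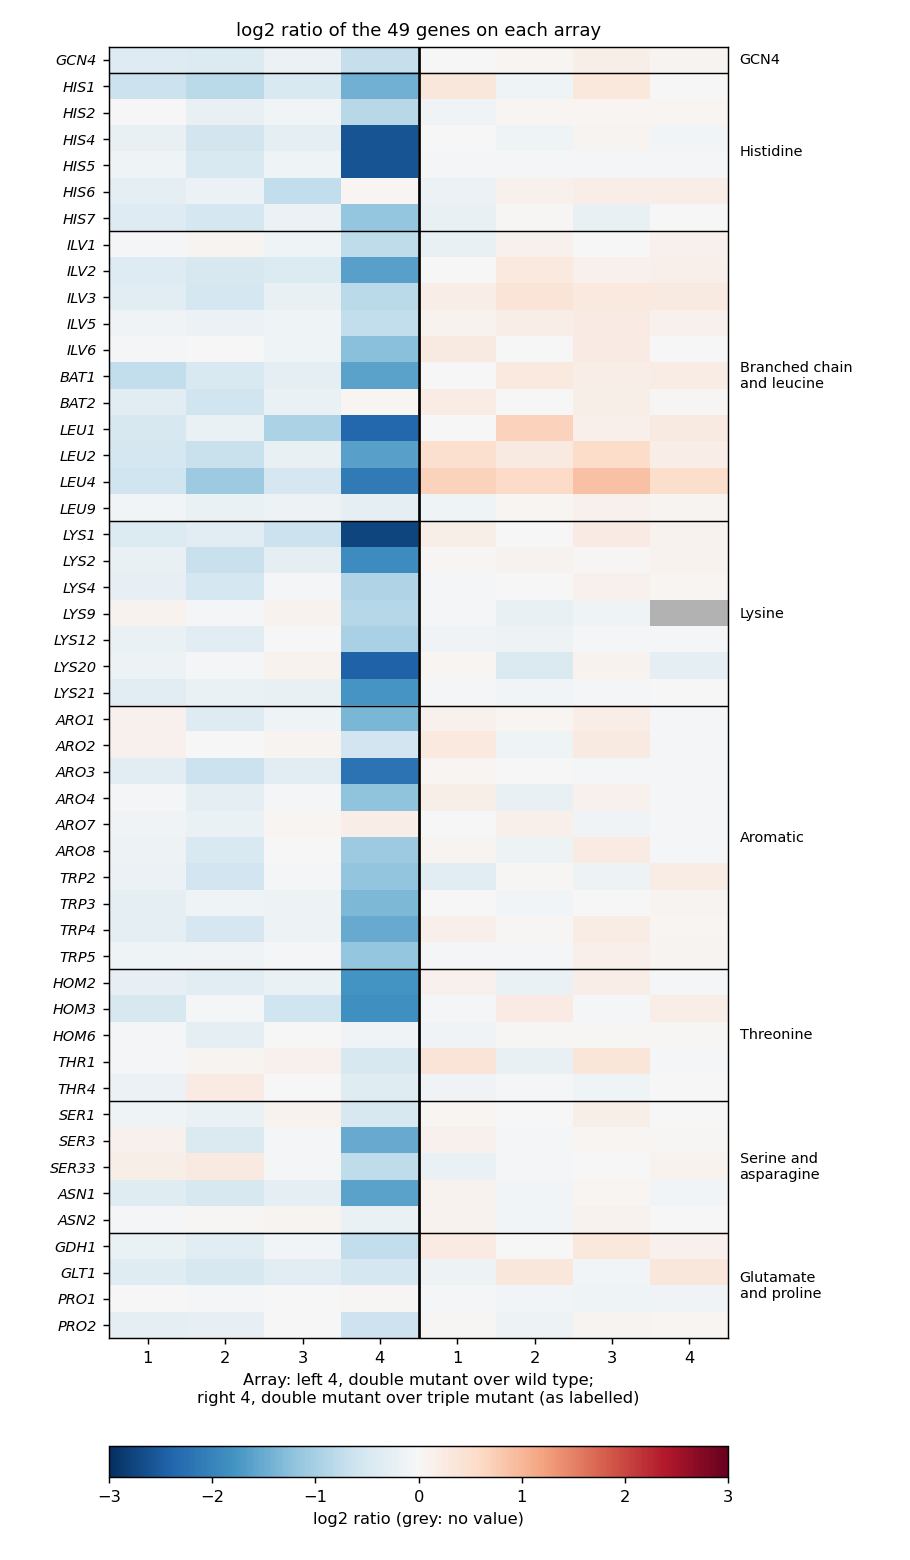
Heat map of the log2 ratio of each of the 49 genes (rows, by pathway) on each array (columns): double mutant over wild type on the left, double mutant over triple mutant as labelled on the right. Array 4 of the comparison with wild type holds the deepest blue, with 45 of 49 genes below 0, and the genes called lower also lie below 0 on arrays 1 to 3.

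**Figure D2:**
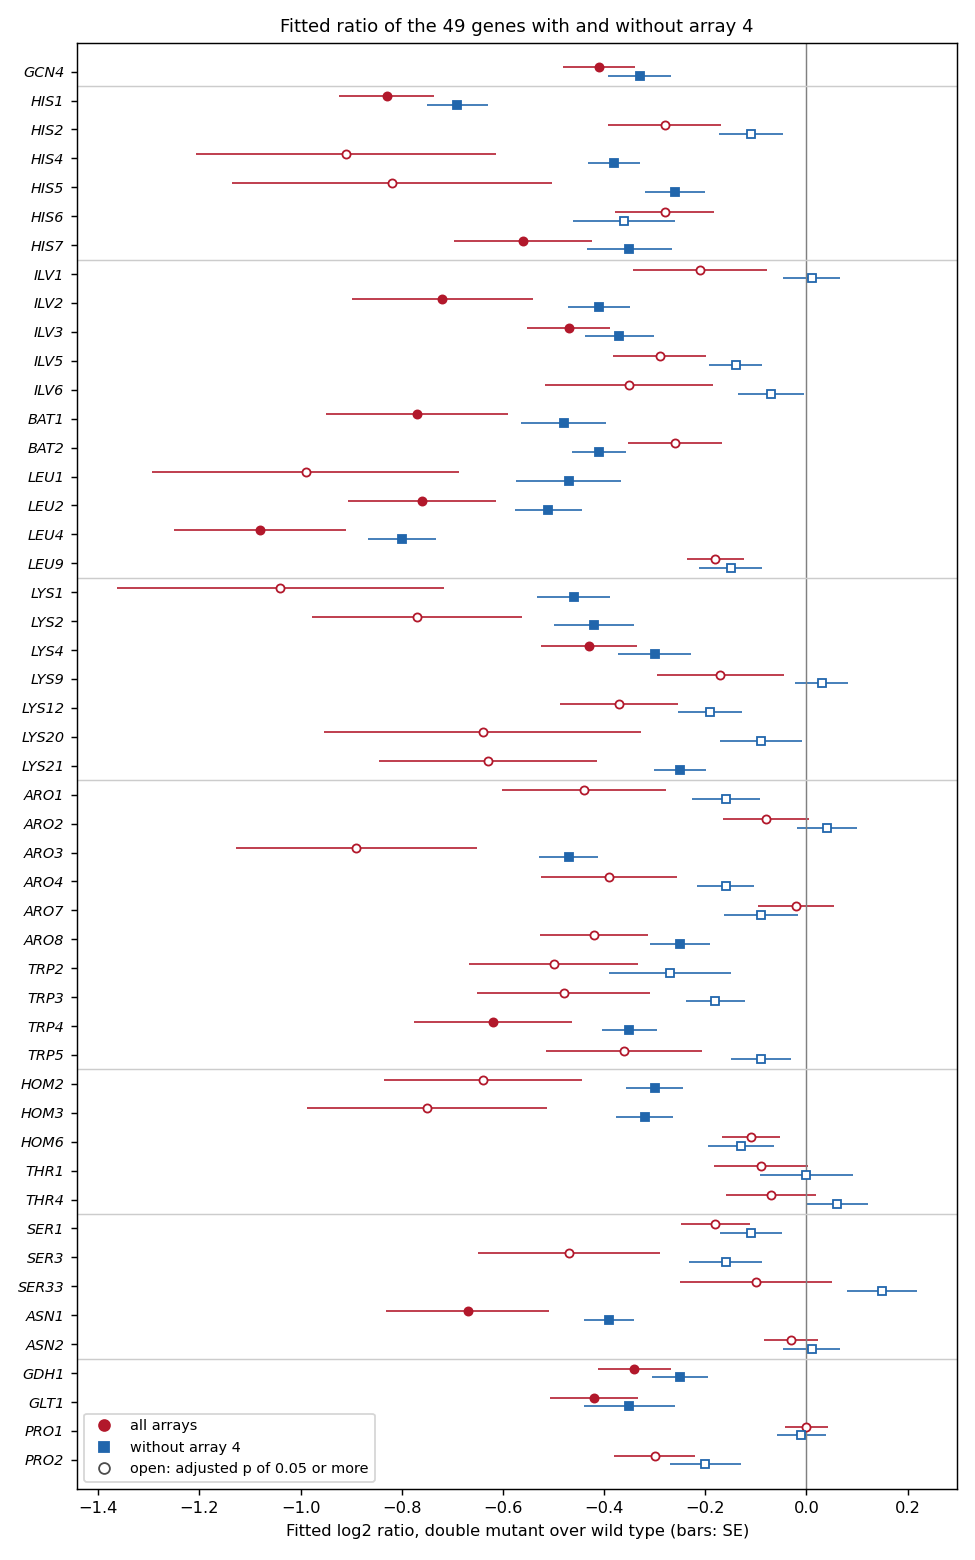
Fitted log2 ratio of double mutant over wild type for each gene (vertical axis, by pathway), with all arrays (circles) and without array 4 (squares); bars are the standard error, and filled symbols have an adjusted p below 0.05. Squares lie nearer 0 than circles for most genes (median -0.25, against -0.42), with shorter bars, and 24 squares are filled, against 13 circles.

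GCN4 (YEL009C), the activator itself, fell in the double mutant. Its log2 ratio to wild type was -0.39, -0.40, -0.17 and -0.70 on arrays 1 to 4, below 0 on each. The fit gave a level 1.33-fold lower (log2 ratio -0.41 ± 0.219, SD, n = 4; adjusted p = 0.0128), and 1.25-fold lower without array 4 (-0.33, adjusted p = 0.0107). Its single-channel log2 intensity was 13.41, 13.29, 13.15 and 13.06 in the double mutant, against 13.80, 13.69, 13.32 and 13.76 in wild type. The highest double mutant value thus lay above the lowest wild-type value, while within each array the double mutant was the lower. The call was lost without array 1 (adjusted p = 0.0673). It was also lost with the processed intensities (adjusted p = 0.129), with median centring (0.0677) and with the 4 arrays fitted alone (0.142).

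Histidine genes gave 2 calls of 6, HIS1 and HIS7, and their median log2 ratio was -0.69 (-0.35 without array 4, when 4 of 6 were called). HIS1 (YER055C), the ATP phosphoribosyltransferase of the first step, had log2 ratios of -0.65, -0.81, -0.45 and -1.43. Its level was 1.78-fold lower (-0.83 ± 0.422, SD, n = 4; adjusted p = 0.00273), and kept its call when any 1 of the 8 arrays was left out. HIS7 (YBR248C), imidazole glycerol phosphate synthase, had ratios of -0.38, -0.52, -0.17 and -1.16 and fell by 0.56 (adjusted p = 0.0455). HIS4 (YCL030C), which carries several activities of the pathway including the last, had ratios of -0.22, -0.54, -0.27 and -2.60. All 4 were below 0, but the spread left it uncalled with every array (-0.91, adjusted p = 0.106), while without array 4 it was called at -0.38 (adjusted p = 0.00225). The aminotransferase gene HIS5 had the same form, with -2.58 on array 4 and -0.45 to -0.12 on the others. The phosphatase gene HIS2 (-0.28, adjusted p = 0.164) and the isomerase gene HIS6 (-0.28, adjusted p = 0.122) were not called, and HIS6 was at 0.06 on array 4.

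Among the 11 genes for the branched-chain amino acids and leucine, 5 fell (median -0.47), and 7 were called without array 4 (median -0.41). LEU4 (YNL104C), the main alpha-isopropylmalate synthase and the entry to leucine, had log2 ratios of -0.60, -1.10, -0.51 and -2.13, the lowest fitted value of the 49. Its level was 2.12-fold lower (-1.08 ± 0.742, SD, n = 4; adjusted p = 0.00866), and 1.74-fold lower without array 4 (-0.80, adjusted p = 0.000218). Its call held with any 1 array left out, and was lost with the processed intensities (adjusted p = 0.0753) and with the 4 arrays fitted alone (0.104). LEU2 (YCL018W), the isopropylmalate dehydrogenase, fell by 0.76 (adjusted p = 0.0195), with -0.52, -0.66, -0.22 and -1.64 on the 4 arrays. ILV3 (YJR016C), the dihydroxyacid dehydratase, fell by 0.47 (adjusted p = 0.0123), with -0.34, -0.53, -0.22 and -0.81. Each of these genes was below 0 on every array, and both calls were lost without array 1. ILV2, the catalytic subunit of acetolactate synthase, fell by 0.72 (adjusted p = 0.0471), and BAT1, the mitochondrial branched-chain aminotransferase, by 0.77 (adjusted p = 0.0383). LEU1, the isopropylmalate isomerase, was at -0.99 but uncalled (adjusted p = 0.0883), with -0.94 on array 3 and -2.35 on array 4. The acetolactate synthase regulatory subunit ILV6 (-0.35), the reductoisomerase gene ILV5 (-0.29), the threonine deaminase gene ILV1 (-0.21), the cytosolic aminotransferase gene BAT2 (-0.26) and LEU9 (-0.18) were not called, and of these BAT2 alone was called without array 4 (-0.41, adjusted p = 0.00191).

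Lysine genes showed the largest contrast of the 7 pathways between array 4 and the rest, with a median difference of -1.49 between its log2 ratio and the mean of arrays 1 to 3. LYS4 (YDR234W), homoaconitase, was the 1 gene of 7 called with all arrays: its ratios were -0.24, -0.52, -0.07 and -0.90, and it fell by 0.43 (adjusted p = 0.0309). LYS2 (YBR115C), alpha-aminoadipate reductase, had -0.22, -0.67, -0.30 and -1.89 and was not called (-0.77, adjusted p = 0.0604). LYS1 (YIR034C), the saccharopine dehydrogenase of the last step, had -0.42, -0.33, -0.64 and -2.75, the lowest single value among the 49 genes on any array, and was not called either (-1.04, adjusted p = 0.0935). Both lay below 0 on all 4 arrays, and both were called without array 4, at -0.42 and -0.46. The homocitrate synthase gene LYS21 was also called then (-0.25), but its partner LYS20, with -2.43 on array 4 and between -0.15 and 0.10 on the others, was not (-0.09, adjusted p = 0.542). LYS9 (-0.17) and LYS12 (-0.37) were uncalled in both fits.

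Of the 10 aromatic genes, TRP4 (YDR354W), anthranilate phosphoribosyltransferase, fell by 0.62 (adjusted p = 0.0492), with -0.29, -0.51, -0.16 and -1.52. ARO8 (YGL202W), an aromatic aminotransferase, had -0.15, -0.45, 0.01 and -1.08 and lay just outside the threshold (-0.42, adjusted p = 0.0503). ARO3 (YDR035W), a DAHP synthase of the entry step, had -0.35, -0.64, -0.35 and -2.21 (-0.89, adjusted p = 0.0599). TRP4 and ARO3 were thus lower on each array and ARO8 on 3 of 4, and all 3 were called without array 4, at -0.35, -0.47 and -0.25. The other 7 were called in neither fit: ARO1, TRP2, TRP3, TRP5 and ARO4 lay between -0.50 and -0.36, while the chorismate synthase gene ARO2 (-0.08) and the chorismate mutase gene ARO7 (-0.02) were near 0.

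In the aspartate to threonine branch, 0 of 5 genes were called with all arrays by limma, and 2 had an unadjusted p below 0.05. These were HOM2 (YDR158W), aspartate semialdehyde dehydrogenase, with -0.25, -0.35, -0.19 and -1.79, and HOM3 (YER052C), aspartate kinase, with -0.49, -0.07, -0.60 and -1.83. Both were below 0 on every array and were called without array 4, at -0.30 and -0.32. The later enzymes were close to the median of all genes: HOM6 had -0.03, -0.29, -0.02 and -0.11 (-0.11, adjusted p = 0.261), and the fitted ratios of THR1 and THR4 were -0.09 and -0.07.

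Asparagine synthetase gene ASN1 (YPR145W) fell by 0.67 (adjusted p = 0.0418), with -0.36, -0.47, -0.27 and -1.60, while its isozyme gene ASN2 had -0.05, 0.04, 0.08 and -0.20. SER1 (YOR184W), the phosphoserine aminotransferase, had -0.13, -0.21, 0.10 and -0.48 (-0.18, adjusted p = 0.137), and SER3 (YER081W), a phosphoglycerate dehydrogenase, 0.13, -0.43, -0.06 and -1.51 (-0.47, adjusted p = 0.152). Neither serine gene had 1 sign on all arrays, and neither was called in either fit, nor was the second phosphoglycerate dehydrogenase gene SER33 (-0.10). Of the nitrogen assimilation genes, GDH1 (YOR375C), NADP-dependent glutamate dehydrogenase, had -0.21, -0.34, -0.09 and -0.73 and fell by 0.34 (adjusted p = 0.0263). GLT1 (YDL171C), glutamate synthase, had -0.36, -0.48, -0.31 and -0.52 and fell by 0.42 (SD 0.1, n = 4; adjusted p = 0.0251). GLT1 was the called gene whose arrays were closest together, array 4 included. The proline gene PRO2 was at -0.30, -0.25, -0.00 and -0.63 (adjusted p = 0.0613), and PRO1 stayed between -0.05 and 0.03.

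The departure of array 4 lay in its wild-type channel. Each gene's value on array 4 was set against its mean on arrays 1 to 3: the ratio was lower by a median of 0.88 on the log2 scale, made of a shift of -0.01 in the double mutant channel and of 0.88 in the wild-type channel, which was higher for 45 of 49 genes. Of the 49 genes, 26 (53.1%) were among the lowest 5% of all genes in this difference. By pathway these were 8 of 10 aromatic, 5 of 7 lysine, 3 of 5 serine and asparagine, 6 of 11 branched-chain, 2 of 5 threonine, 2 of 6 histidine and 0 of 4 glutamate and proline genes. The summed intensity of the 49 genes was 139288, 129040, 125728 and 125319 in the double mutant, against 165044, 156999, 142029 and 294972 in wild type. The double mutant sums were thus close to each other and below wild type on each array, and wild type stood apart on array 4 alone. HIS4, for example, had a log2 intensity of 11.14, 10.97, 11.00 and 11.07 in the double mutant, against 11.36, 11.51, 11.27 and 13.67 in wild type. HIS6, BAT2, ARO7 and PRO1 were the 4 genes at or above 0 on array 4.

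**Figure D3:**
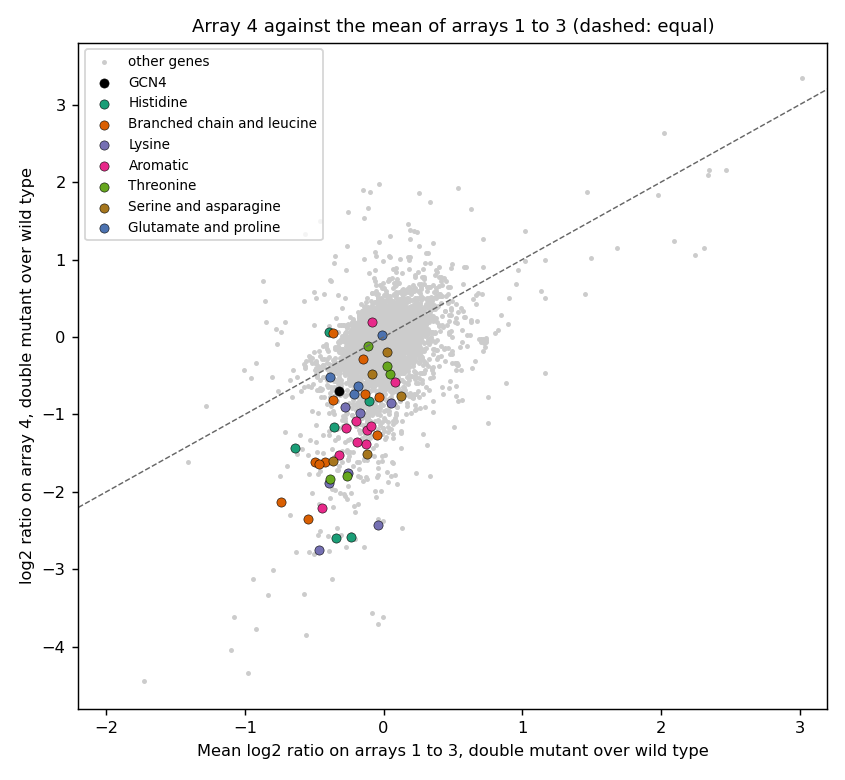
Log2 ratio of double mutant over wild type on array 4 (vertical) against the mean of arrays 1 to 3 (horizontal) for each gene; colours mark the 49 genes by pathway, grey the other genes, and the dashed line equal values. Most of the 49 lie left of 0 and well below the line, by a median of 0.88, and HIS6, BAT2, ARO7 and PRO1 lie above 0.

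Markers of mating type moved with array 4. The strain is labelled mating type alpha. The 6 a-cell genes (MFA1, MFA2, STE2, STE6, BAR1 and AGA2) were well above background in both channels on all 4 of these arrays. So were 94.3% to 98.7% of all probes, by channel. The median log2 intensity of the 6 genes was low on arrays 1 to 3, at 6.63 to 6.96, against 9.10 to 9.12 over all genes. Their summed intensity was 657, 668, 667 and 655 in the double mutant, against 708, 721, 693 and 1355 in wild type. The a-cell sum was thus raised in the wild-type channel of array 4, where log2 ratios of double mutant over wild type reached -1.99 for the agglutinin subunit gene AGA2, -1.12 for the pheromone gene MFA2 and -1.07 for the receptor gene STE2. The 5 alpha-cell genes (MFALPHA1, MFALPHA2, STE3, SAG1 and MATALPHA1) summed to 43462, 41035, 40802 and 39731 in the double mutant. In wild type they summed to 46392, 45057, 46381 and 32759, below the double mutant on array 4 alone. On array 4, against their mean on arrays 1 to 3, STE3, SAG1 and MATALPHA1 were lower in both channels. Their log2 shifts were -0.39, -0.50 and -0.23 in the double mutant, and -0.66, -0.77 and -0.45 in wild type. Those of MFALPHA1 and MFALPHA2 were 0.03 and 0.07 in the double mutant, and -0.22 and -0.75 in wild type. Without array 4, the a-cell gene MFA2 (-0.29, adjusted p = 0.0127) and the alpha-cell gene MFALPHA1 (-0.24, adjusted p = 0.0294) were both called lower, and the other 5 a-cell genes, between -0.15 and 0.05, were not called. On the arrays with the triple mutant, where array 2 had 3 of 6 a-cell genes above background, the a-cell sum was 563 to 995 in the channel labelled double mutant, against 614 to 971 in that labelled triple mutant. The part of these markers in the lower amino acid transcripts was not tested; without array 4 the calls stand as given above.

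**Figure D4:**
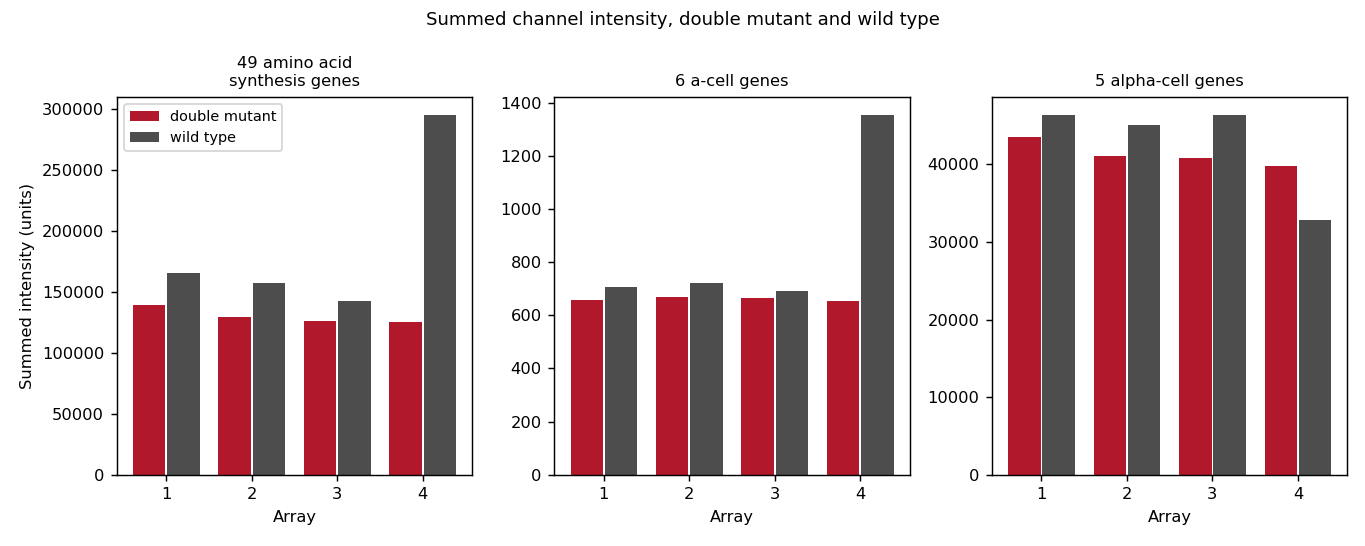
Summed intensity of the 49 genes, the 6 a-cell genes and the 5 alpha-cell genes on arrays 1 to 4. Red bars are the double mutant channel and grey bars wild type, in units after background correction (offset 50) and scaling. On array 4 the wild-type bar is raised for the 49 genes (294972) and the a-cell genes (1355) and lowered for the alpha-cell genes (32759). The double mutant sums change less, although STE3, SAG1 and MATALPHA1 were lower on array 4 in both channels.

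Several steps are shared by isozymes, whose ratios could be compared within each array. The double mutant ratio was lower for LEU4 than for LEU9 on all 4 arrays, by a log2 difference of -0.51, -0.90, -0.36 and -1.85. It was also lower for ASN1 than for ASN2 (-0.31, -0.51, -0.35 and -1.40) and for ARO3 than for ARO4 (-0.32, -0.37, -0.30 and -1.02). These 3 pairs kept 1 sign on every array. BAT1 minus BAT2 (-0.42, 0.14, -0.10 and -1.65), SER3 minus SER33 (-0.04, -0.71, 0.01 and -0.75) and LYS21 minus LYS20 (-0.18, -0.14, -0.33 and 0.67) did not. With 4 arrays an exact test of such a pair cannot go below p = 0.125, so none was made. Cross-hybridisation between isozyme transcripts could draw such ratios together and was not tested.

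Genes around these pathways were read as 3 further lists. Of 21 other pathway genes measured, 4 fell, namely SHM2, cytosolic serine hydroxymethyltransferase (-0.51, adjusted p = 0.0226), GLN1, glutamine synthetase (-0.47, adjusted p = 0.0271), AAT2, aspartate aminotransferase (-0.42, adjusted p = 0.0418), and GLY1, threonine aldolase (-0.27, adjusted p = 0.0356), and 0 rose. Their median was -0.12. Without array 4 GLY1 lost its call (-0.20, adjusted p = 0.0513), and ARO10 (-0.33, adjusted p = 0.0297) and OAC1 (-0.34, adjusted p = 0.041) were called lower. None of 19 genes of GCN4 control was called by limma (4 had an unadjusted p below 0.05, median 0.03). Among them GCN2, the eIF2 kinase, was at 0.01, and PCL5 at -1.08 (-0.25, -0.48, -0.78 and -2.80; adjusted p = 0.0809), called without array 4 at -0.52 (adjusted p = 0.00838). None of 12 pathway activators was called (1 had an unadjusted p below 0.05, median -0.08): LEU3 was at -0.01 and LYS14 at -0.12. Without array 4 CHA4 was called higher (0.21, adjusted p = 0.0481). Differences between these lists and the 49 genes were not tested.

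Against the channel labelled triple mutant, 0 of the 49 genes were called by limma with all arrays, and 4 had an unadjusted p below 0.05, with 0.541% of all genes called lower and 1.05% higher. The median log2 ratio was 0.04 (all genes -0.00) and the ratios ran from -0.19 to 0.67. By array the median was 0.02, -0.00, 0.13 and 0.04, so in these medians no array stood apart as array 4 had in the other comparison. In intensity array 2 did. Its Cy3 median was the lowest of all arrays (117), with 85.7% of probes well above background in that channel. GCN4 had a log2 intensity of 11.70 there in the channel labelled double mutant, against 13.14 to 13.31 on the other arrays. In the channel labelled triple mutant it had 11.64, against 13.00 to 13.22, so both channels were low. The ratio was above 0 on all 4 arrays for 12 genes (24.5%), against 13% of all genes, and 7 of the 12 were branched-chain and leucine genes. Both comparisons share the double mutant, and are therefore given side by side only.

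Branched-chain and leucine genes held the highest ratios to the triple mutant, as labelled, all 11 above 0 with a median of 0.17. Of all 6465 genes, 3171 had a ratio above 0. LEU4 had 0.70, 0.57, 0.88 and 0.52 (0.67 ± 0.158, SD, n = 4; adjusted p = 0.104), LEU2 had 0.47, 0.27, 0.55 and 0.21 (0.38, adjusted p = 0.291), and ILV3 had 0.19, 0.38, 0.30 and 0.27 (0.29, adjusted p = 0.141). Their single arrays lay on 1 side of 0 with little spread, and missed the threshold in a fit whose spread includes array 4 of the comparison with wild type. Without that array these 3 genes were called higher in the channel labelled double mutant, LEU4 with an adjusted p of 0.000312, LEU2 of 0.00565 and ILV3 of 0.0225. They were 3 of the 49 genes (6.12%), while 5.4% of all genes were called higher in that fit, so the share of the 49 genes was near that of all genes. LEU4 had a log2 intensity of 11.50, 11.19, 11.53 and 11.65 in the channel labelled double mutant. In that labelled triple mutant it had 10.80, 10.62, 10.65 and 11.12. If the labels were exchanged, as PDR1 would have it, LEU4 would be the lower in the double mutant.

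**Figure D5:**
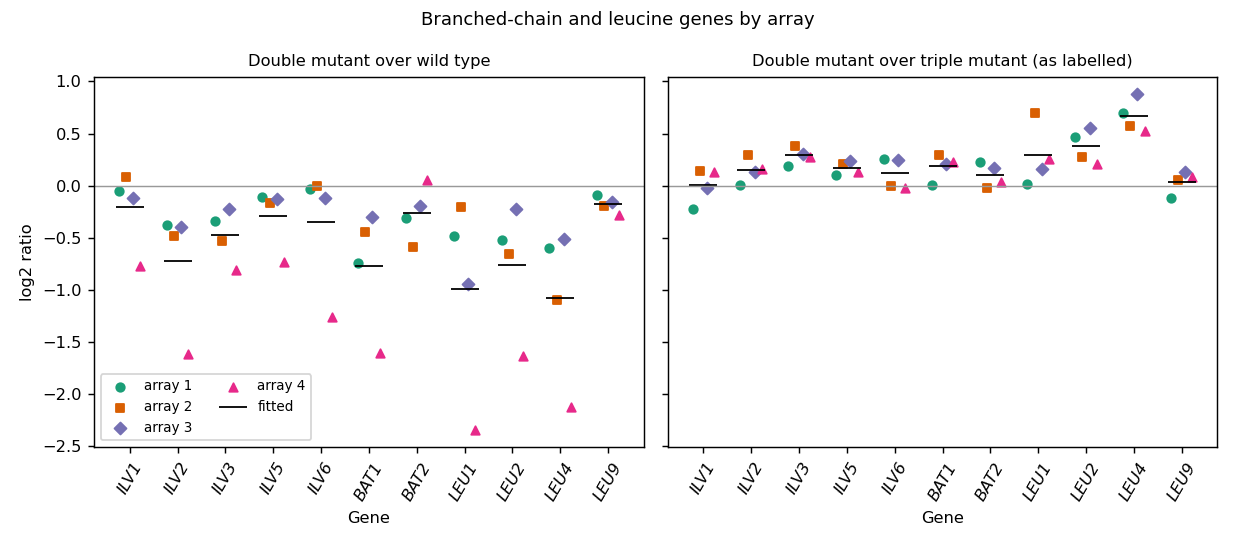
Log2 ratio of the 11 branched-chain and leucine genes on each array (symbols) with the fitted value (bar): double mutant over wild type on the left, double mutant over triple mutant as labelled on the right. LEU4 lies furthest from 0 in both panels, at a fitted -1.08 and 0.67, and array 4 is the lowest in the left panel for 10 of the 11 genes.

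Other pathways lay near 0 in this comparison. GCN4 had 0.01, 0.07, 0.17 and 0.09 (0.09, adjusted p = 0.668), and pathway medians were -0.00 for histidine, -0.04 for lysine, 0.02 for aromatic, 0.03 for threonine, 0.03 for serine and asparagine and 0.05 for glutamate and proline genes. HIS1 had 0.34, -0.12, 0.31 and -0.02, higher on arrays 1 and 3, where the channel labelled double mutant carried Cy5, than on arrays 2 and 4. GDH1 was at 0.17 (adjusted p = 0.321). LYS9 had no value on array 4 of this comparison. On array 2 the brighter probes of LYS1 and SER3 were not well above background in either channel, nor that of TRP2 in the channel labelled double mutant, so their ratios there rest on dim spots. None of the other pathway genes, GCN4 control genes or pathway activators was called (1, 4 and 1 had an unadjusted p below 0.05).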

How the data were processed

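RNA of 3 strains was hybridised on 1 slide of 2-colour arrays. Per the file headers, the authors read the scans with Agilent Feature Extraction (10.7.3.1). The deposited files give for each spot a mean and a local background intensity per channel, a processed intensity detrended and dye-normalised by the authors, and flags, the other columns used. A deposited table of normalized values was left out: its 8 column names match no array. The double mutant carried Cy5 on arrays 1 and 3 and Cy3 on arrays 2 and 4 of each comparison. All arrays were scanned together, so no slide or scan batch could be tested.

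Intensities were corrected by normexp (offset 50) and scaled by loess within arrays with limma (3.58.1; R 4.3.3). Control spots were given weight 0 and outlier-flagged spots removed (1 among the 49 genes). Of 13092 probes, 12872 were kept, being well above background in 4 or more of the 16 measurements, and each of 6465 genes took its brighter probe. All 49 genes had 2 probes, whose ratios to wild type had the same sign for 46 and differed by a median of 0.02 and at most 0.20 (LYS9). Names of 5869 of 6546 features matched the supplied RefSeq table. limma fitted 1 coefficient per comparison and a common dye term to the 8 arrays, with 5 residual degrees of freedom and Benjamini-Hochberg adjustment over all genes. Single-channel values came from quantile scaling of average intensities after loess. The number of arrays limits the precision. On simulated data with 6465 genes, changes of 0.5 and 1 were recovered for 83% and 97% of genes against wild type. Against the triple mutant the shares were 88% and 96%. The simulated noise had the same spread on all 8 arrays for a gene, and was independent between genes. In the data, array quality weights ran from 0.158 (array 4 with wild type) to 5.69 (array 4 with the triple mutant). Most of the 49 genes shifted together on the former. These shares therefore do not give the power for the 49 genes.

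The 49 genes and all lists were chosen with earlier results of these data known. The text gives all 49, the values by array for GCN4 and the 3 genes of each pathway with the smallest p against wild type, and from each other list up to 3 called genes a direction. GLY1, ARO10, OAC1, GCN2, PCL5, LEU3, LYS14, CHA4 and values by array of further genes were added after their values were seen. Alternatives were other background, scaling, filter and probe choices, fits without the dye term, by comparison, with blocks or with array weights, and leaving out each array.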

Additional observations from a re-analysis of the deposited data

Results flagged for a closer look

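In groups of 4 arrays, a value was picked out where its gap to the nearest other array took most of the group's range (Dixon's test at the 95% level). Of 97 gene and comparison pairs tested, 17 were picked out. Chance picks out about 1 group in 20, and the genes on an array are not independent of each other.

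In the comparison of the double mutant with wild type, 15 genes were picked out, each because array 4 was far below the other arrays. Its log2 ratio was -2.60 for HIS4, -2.58 for HIS5, -2.75 for LYS1, -2.43 for LYS20 and -2.21 for ARO3. It was -1.79 for HOM2, -1.76 for LYS21, -1.62 for ILV2 and -1.60 for ASN1. For TRP3 it was -1.35, for ILV6 -1.26 and for TRP5 -1.15, and for LYS9 -0.85, ILV5 -0.73 and ARO2 -0.58. They come from the histidine, branched-chain, lysine, aromatic, threonine and asparagine pathways, and ILV2 and ASN1 alone of them were called with all arrays.

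In the comparison with the triple mutant, array 1 was far below the others for HIS2 (-0.11) and HOM6 (-0.10).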

How the results depend on the processing

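The direction of the median against wild type held in all 20 alternatives planned, but none of the 13 calls was kept in every one, and the number of genes called lower moved with the fit. It was 1 with the authors' processed intensities, 3 with median centring in place of loess, 0 with the 4 arrays of the comparison alone, 8 with array quality weights, and 7 with arrays 1 to 3 alone, the alternative added after seeing the data. With a replicate block it was 6. Counts over all genes moved in these fits as well, and are given below. Correlations of the deviations of same-numbered arrays ran from -0.18 to 0.20, and those of differently numbered arrays from -0.34 to 0.30. With 4 arrays a comparison, they cannot decide whether the numbers pair samples. Leaving out each array gave 2 to 24 genes: 2, 14, 7 and 24 without arrays 1 to 4 of this comparison, and 8, 6, 6 and 7 without those of the other. The cause was not tested. Against the triple mutant, as labelled, the 4 arrays alone gave 11 genes higher and 1 lower and array weights 16 and 2, against 0 and 0. Calls rose over all 6465 genes too, to 825 higher and 425 lower with the 4 arrays alone. With array weights they rose to 1349 and 1228. Leaving out each array gave 0 to 3 of the 49 genes higher, and a median of -0.02 to 0.10. Of uncalled genes, at least 7 of 36 against wild type and 22 of 49 against the triple mutant changed sign in some alternative. Genes whose ratio rounded to 0.00, such as PRO1 against wild type and HOM6 against the triple mutant, were not counted as changing.

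Over all genes, 321 were lower and 209 higher than wild type, against 9 and 31 with processed intensities, 26 and 28 with median centring, 6 and 19 with the 4 arrays alone, 106 and 105 with arrays 1 to 3 alone, 149 and 95 with the replicate block, 196 and 131 with array weights, 125 and 77 without array 1, and 446 and 379 without array 4; dye-swap pairs averaged gave 211 lower. Against the triple mutant 35 were lower and 68 higher, against 425 and 825 with its 4 arrays alone, 1228 and 1349 with array weights, 123 and 349 without array 4 of the other comparison, 16 and 5 with median centring, 19 and 8 with dye-swap pairs averaged, and 14, 39 and 15 higher with processed intensities, no dye term and the replicate block.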
